A study of Homo sapiens with 12 samples.

Results

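The genes described here encode nuclear receptors other than the glucocorticoid receptor (GR). A list of 42 human nuclear receptor symbols was drawn up by name, and 39 of them were found by symbol in all 12 libraries, out of 19907 genes. NR0B1, NR2E1 and PGR were not analysed here. Of the 39, 28 had a mean of at least 20 normalized counts over the 12 libraries and were taken as expressed. Fold changes are given for these 28 alone, and the other 11 are described by level. All libraries were made from MDA-MB-231, an established triple-negative breast cancer (TNBC) cell line that expresses GR. Cells labelled WT-GR (wt-GR below) came from a single non-targeted clone recovered from the CRISPR/Cas9 population, and cells labelled S134A-GR came from a single clone (#1) in which both alleles of GR carry the S134A change, alanine in place of a serine that can be phosphorylated. Clone and GR genotype therefore cannot be told apart. Cells of either line went without full serum for 18 h, in medium with 1% DCC (serum stripped of steroid hormones with charcoal), before a 6 h exposure to vehicle or to 10 ng/mL TGFβ1. Each of the 4 groups has 3 replicates.

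Nuclear receptors are transcription factors that read small lipophilic signals. Most of them hold a DNA-binding domain folded around a pair of zinc fingers and a pocket for a ligand such as a steroid, thyroid hormone, a retinoid, vitamin D or a lipid. Steroid receptors bind DNA largely as homodimers, while the receptors for thyroid hormone, retinoic acid, vitamin D, oxysterols and fatty acids pair with a retinoid X receptor (RXR). A further set, the orphan receptors, has no agreed natural ligand and is set mainly by how much of the protein is made. When bound to DNA the receptors recruit coactivators or corepressors. TNBC is defined in part by the lack of estrogen and progesterone receptors. Because DCC removes much of the hormone that serum brings, the libraries report on transcript levels of the receptors in medium poor in their ligands.

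The recovered reads behind the values numbered 56362036 in the shallowest library and 129832227 in the deepest. Both exceed the average number of reads per sample that the authors give. A floor of 3 reads corresponded to 2.146 to 4.888 normalized counts, depending on the library, and covers counting error only. The line showed its known character: VIM, CD44 and EGFR, which mark mesenchymal-like breast cancer cells, averaged 468800, 51110 and 17930 normalized counts, while the epithelial cadherin CDH1 averaged 6.17 and the leukocyte marker PTPRC 3.95. Other luminal markers were not absent, and they moved with the line. EPCAM averaged 1024 (vehicle) and 1018 (TGFβ1) normalized counts in the wt-GR line and 378.2 and 339.5 in S134A-GR cells, whereas GATA3 (808.4 and 712.0 against 1093 and 882.5) and FOXA1 (229.1 and 197.5 against 289.4 and 282.1) were higher in S134A-GR cells. PECAM1, an endothelial marker, averaged 1358 and 1051 against 1141 and 835.2, CD14 of monocytes 30.42 and 14.69 against 4.622 and 7.144, and ALB of hepatocytes 3.91 over all libraries. The S134A codon change cannot be read from counts per gene. The transcript of GR itself, NR3C1, ranged from 10440 to 12730 normalized counts in wt-GR vehicle libraries, from 10490 to 11330 in wt-GR TGFβ1 libraries, from 8516 to 8971 in S134A-GR vehicle libraries and from 8336 to 9398 in S134A-GR TGFβ1 libraries, and it was thus lower in each S134A-GR library than in each wt-GR library. For the protein, the authors reported by western blot that total GR was equal between the lines. In bulk RNA, fewer cells that make a transcript and less of it per cell cannot be told apart. Nothing in the sources used here says whether the 3 replicates of a group were separate cultures, so p-values measure the spread between these libraries, which may be technical.

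Close relatives in this family are alike in sequence, most of all where they contact DNA, so the coding stretches for the zinc fingers are shown for the 2 pairs of relatives on which several results below turn. They were read from the canonical transcripts of GENCODE on hg38, from the first cysteine codon of the first finger to the last cysteine codon of the second. Capitals mark each base that differs between the members of a pair, and all other bases are the same in both. The first pair encodes the COUP transcription factors. NR2F1 lies at chr5:93583222-93594611 on the plus strand and NR2F2 at chr15:96325938-96340263 on the plus strand.
NR2F1: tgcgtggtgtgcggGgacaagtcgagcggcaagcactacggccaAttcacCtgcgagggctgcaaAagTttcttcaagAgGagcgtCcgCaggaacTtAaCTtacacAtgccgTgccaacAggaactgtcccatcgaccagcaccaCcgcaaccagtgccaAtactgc
NR2F2: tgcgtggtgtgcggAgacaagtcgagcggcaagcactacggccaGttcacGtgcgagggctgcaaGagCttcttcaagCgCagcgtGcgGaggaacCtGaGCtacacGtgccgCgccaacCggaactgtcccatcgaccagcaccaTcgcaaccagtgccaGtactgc
Over these 168 bases the COUP-TF genes differ at 18 positions and are 89.3% identical, and 55 of the 56 codons encode the same residue. The other pair encodes the thyroid hormone receptors. THRA lies at chr17:40058290-40093867 on the plus strand and THRB at chr3:24117153-24495756 on the minus strand.
THRA: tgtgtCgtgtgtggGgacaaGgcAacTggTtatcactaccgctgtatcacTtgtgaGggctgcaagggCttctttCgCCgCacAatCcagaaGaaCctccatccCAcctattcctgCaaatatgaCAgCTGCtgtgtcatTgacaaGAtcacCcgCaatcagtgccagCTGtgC
THRB: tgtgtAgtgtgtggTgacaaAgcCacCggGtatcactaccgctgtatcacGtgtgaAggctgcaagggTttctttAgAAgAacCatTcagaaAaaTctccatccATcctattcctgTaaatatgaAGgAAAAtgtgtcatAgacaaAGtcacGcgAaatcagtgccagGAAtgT
Here 35 of 174 bases differ, identity is 79.9%, and 52 of 58 codons encode the same residue. The longest unbroken run of identical bases was 29 in the COUP-TF pair and 20 in the thyroid hormone receptor pair, both shorter than the 75-base reads. In none of the 4 genes did any 75-base exon stretch occur at a second place in hg38, so their counts are not shared by sequence.

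Levels between genes were compared per kb of annotated exon in wt-GR cells under vehicle. NR2F2 led with 2460 ± 84.7 normalized counts per kb (SD, n = 3). It was followed by the liver X receptor NR1H2 at 1650 ± 45.8, the estrogen-related receptor ESRRA at 1440 ± 104 and the COUP-TF relative NR2F6 at 1190 ± 155, and the libraries of each of these 4 genes lay apart from those of the next in order. For scale, NR3C1 stood at 1280 ± 129 per kb. RARA, at 871 per kb, came next, and RARG, PPARG and NR2C2, at 807, 791 and 705 per kb, followed, with RARG overlapping PPARG and PPARG overlapping NR2C2. RXRA followed at 536, NR2F1 at 503 and NR1H3 at 443 per kb. VDR, THRA and NR2C1 stood at 375, 370 and 346 per kb, and VDR overlapped with THRA and THRA with NR2C1. PPARA, at 184 per kb, was the last of 15 genes at 100 per kb or more. THRB stood at 94.9 per kb, and NR4A2, RORA, HNF4G, NR6A1 and NR3C2 formed a run from 63.5 down to 48.5 per kb in which each overlapped with its neighbour. NR4A1 stood at 32.4 per kb. The 6 lowest were RXRB at 12.9, NR1I3 at 11.1, RORB at 9.20, ESR2 at 5.36, NR4A3 at 4.87 and RARB at 3.28 per kb. In all, 12 of the 27 neighbouring pairs overlapped between libraries.

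**Figure D1:**
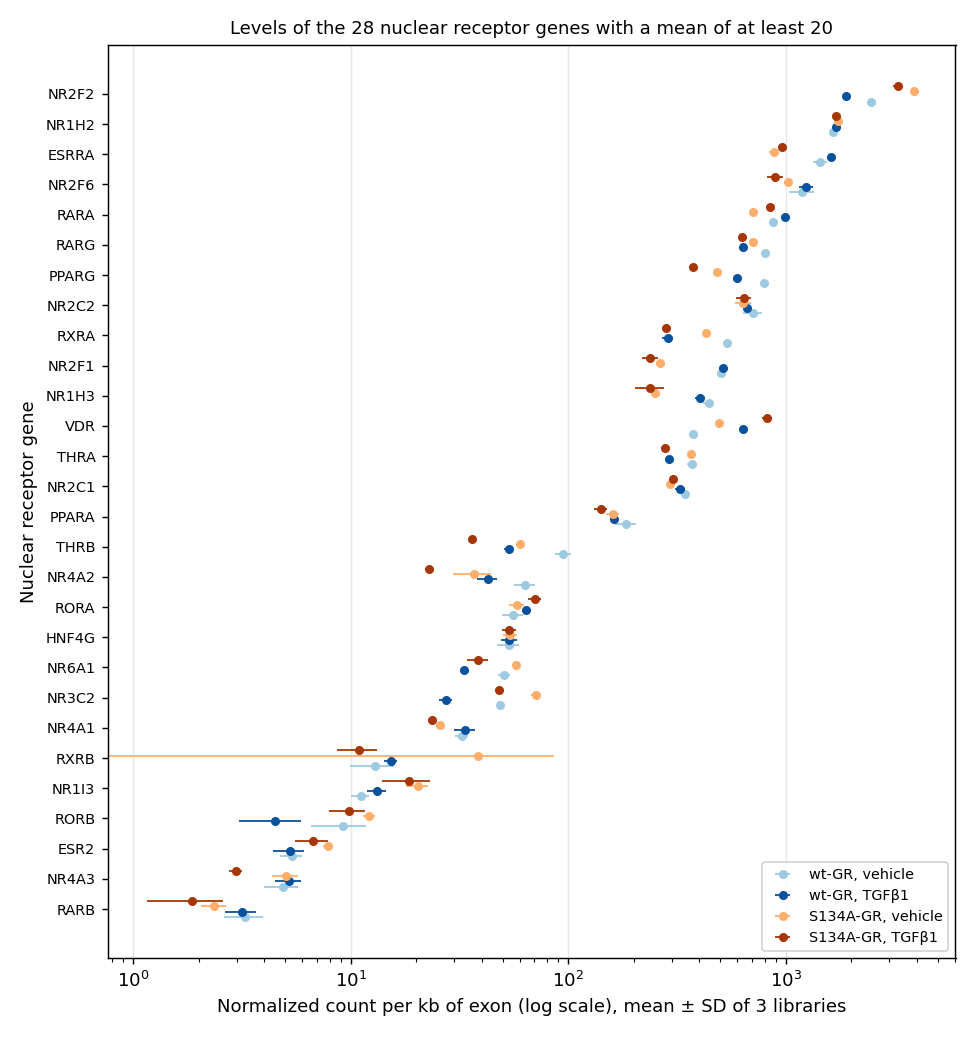
Normalized count per kb of exon, on a log axis, for the 28 expressed nuclear receptor genes (rows, ordered by their level in wt-GR cells under vehicle), as the mean ± SD of 3 libraries in each of the 4 groups. The genes span from 2460 for NR2F2 down to 3.28 for RARB in wt-GR cells under vehicle, and the bar of RXRB in S134A-GR cells under vehicle is wide because of 1 library.

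The 11 genes under a mean of 20 include receptors that define other tissues and other breast cancers. ESR1, the estrogen receptor that luminal breast cancers depend on, had a mean of 3.26 normalized counts, was at 0 in 3 libraries, and had at most 10 reads in any library. The bile acid receptor NR1H4, the pregnane X receptor NR1I2 and the retinoid receptor RXRG averaged 0.586, 0.477 and 0.713, and were at 0 in 9, 9 and 10 of the 12 libraries. ESRRB averaged 2.01 and ESRRG 5.11, the steroidogenic factors NR5A1 and NR5A2 3.65 and 7.98, and NR0B2, which lacks the DNA-binding domain, 1.53. None of the 11 was listed at 0 throughout. Nearest to the limit were the hepatocyte factor HNF4A at 15.7 and the photoreceptor factor NR2E3 at 10.3, while RARB at 25.2 and NR4A3 at 28.5 lay just above it.

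The next comparison asks how TGFβ1 changed receptor transcripts. In wt-GR cells, 12 of the 28 expressed genes passed an adjusted p of 0.05 (limma on log2 of the normalized count + 1, Benjamini-Hochberg over 18579 genes), with 2 higher and 10 lower. In S134A-GR cells 12 passed as well, 3 higher and 9 lower. These are 42.9% of the 28 in each line, beside 26.1% (wt-GR) and 23.5% (S134A-GR) of all 14425 genes tested with a mean of at least 20. By direction, 14.0% of those genes were higher and 12.1% lower in wt-GR cells, and 12.7% were higher and 10.8% lower in S134A-GR cells. The vitamin D receptor VDR and RARA rose in both lines. NR2F2, NR3C2, NR4A2, NR6A1, PPARG, RARG, RXRA, THRA and THRB fell in both. RORA passed in S134A-GR cells only and RORB in wt-GR cells only, and neither difference between lines passed its own test. The median log2 fold change of the 28 was −0.06 (wt-GR) and −0.19 (S134A-GR), beside −0.001 and −0.004 over all genes tested. The stricter rule, which also asks for a log2 fold change of 1 or more in size, was met by RORB in wt-GR cells (1.93% of all genes) and by no receptor in S134A-GR cells (1.55%). The summed level of VIM, CD44 and EGFR lay between 477200 and 491200 under vehicle and between 572800 and 592900 under TGFβ1 in wt-GR cells, and between 481300 and 489500 and between 579300 and 609200 in S134A-GR cells, and its part in these results was not tested. Fold changes below are on the log2(value + 1) scale, on which differences of weakly expressed genes come out too small.

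VDR is the nuclear receptor through which vitamin D acts. The wt-GR libraries held 2211, 2085 and 2084 normalized counts under vehicle and 3750, 3507 and 3624 under TGFβ1. In S134A-GR cells the values were 2741, 2820 and 2815 under vehicle and 4911, 4531 and 4481 under TGFβ1. No 2 groups overlapped, and the order was the same in every library: wt-GR vehicle, S134A-GR vehicle, wt-GR TGFβ1, S134A-GR TGFβ1. TGFβ1 raised VDR by 0.77 ± 0.05 on the log2 scale (SE), or 1.71-fold, in wt-GR cells and by 0.73 ± 0.05, or 1.66-fold, in S134A-GR cells (limma adjusted p = 2.73e-08 and 5.56e-08). The difference between these responses was −0.04, with a 95% interval from −0.18 to 0.10.

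The retinoid receptors moved in both directions. RARA, a receptor for retinoic acid, held 4277, 4011 and 4101 normalized counts under vehicle and 4730, 4567 and 4800 under TGFβ1 in wt-GR cells. In S134A-GR cells it held 3424, 3331 and 3343 under vehicle and 3855, 4021 and 4125 under TGFβ1. The treated libraries lay above the vehicle libraries within each line, with a rise of 1.14-fold in wt-GR cells and 1.19-fold in S134A-GR cells (limma adjusted p = 0.0041 and 0.000519). RARA shares 11.7% of its exon bases with RARA-AS1 (mean 33.6), and 6.14% and 3.54% with unnamed genes, all on the other strand. RARG, its relative, went the other way. It held 4067, 4268 and 4073 under vehicle and 3273, 3189 and 3283 under TGFβ1 in wt-GR cells, and 3684, 3572 and 3647 followed by 3235, 3298 and 3105 in S134A-GR cells. It was thus 1.27-fold and 1.13-fold lower under TGFβ1 (limma adjusted p = 1.41e-05 and 0.00467), again with no overlap within a line. RARB, the retinoic acid-inducible member, stood between 10.01 and 36.85 in the 12 libraries and passed no comparison in the main fit. Between the lines under TGFβ1 it came near, 1.72-fold lower in S134A-GR cells without overlap (limma adjusted p = 0.0552). That difference passed with edgeR, a pseudocount of 16 or only genes of mean 20 tested, but not with DESeq2.

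RXRA, the shared partner of the thyroid hormone, retinoic acid, vitamin D and lipid receptors, had the lowest adjusted p among the receptors that fell. It lies at chr9:134317098-134440585 on the plus strand. Under vehicle the wt-GR libraries held 6786, 6370 and 6267 normalized counts and the S134A-GR libraries 5225, 5291 and 5108. Under TGFβ1 the values were 3549, 3240 and 3601 in wt-GR cells and 3595, 3323 and 3325 in S134A-GR cells. The lines were apart under vehicle and overlapped under TGFβ1. TGFβ1 lowered RXRA by 1.87-fold in wt-GR cells (log2 −0.90 ± 0.05, SE, limma adjusted p = 1.08e-08) and by 1.53-fold in S134A-GR cells (−0.61 ± 0.05, adjusted p = 7.79e-07).

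RXRB could not be judged. Every one of its 75-base exon stretches is also found on alternate scaffolds of hg38, and how reads with several matches were counted is not given in the sources used here. The S134A-GR vehicle libraries held 39.59, 365.9 and 43.65 normalized counts, while the other 9 libraries ranged from 32.34 to 63.55. Its fitted TGFβ1 response in S134A-GR cells, −1.02 ± 0.60 on the log2 scale, became 0.01 without the second S134A-GR vehicle library, and the line difference under vehicle went from 0.79 to −0.25. Neither passed the test with or without that library.

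THRB, the beta receptor for thyroid hormone, held 1098, 1089 and 936.1 normalized counts under vehicle and 583.2, 613.7 and 560.1 under TGFβ1 in wt-GR cells. In S134A-GR cells the values were 685.2, 640.7 and 647.7 under vehicle and 410.9, 396.9 and 384.1 under TGFβ1. The 4 groups did not overlap, so THRB was both lower after TGFβ1 and lower in S134A-GR cells. TGFβ1 brought it down by 1.77-fold in wt-GR cells and by 1.65-fold in S134A-GR cells (limma adjusted p = 2.55e-06 and 1.15e-05). THRA, the alpha receptor, fell less, by 1.27-fold from a mean of 2711 in wt-GR cells and by 1.31-fold from a mean of 2692 in S134A-GR cells (limma adjusted p = 0.000322 and 0.000106). Part of the THRA exons, 6.45% of their bases, overlaps NR1D1 on the other strand.

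NR3C2, the mineralocorticoid receptor and the closest relative of GR in this list, held 325.9, 323.4 and 311.7 normalized counts under vehicle and 172.2, 175.8 and 195.5 under TGFβ1 in wt-GR cells. The S134A-GR libraries held 497.7, 472.4 and 448.1 under vehicle and 331.0, 318.9 and 304.7 under TGFβ1. The treated S134A-GR libraries overlapped with those of untreated wt-GR cells. The fall was 1.77-fold in wt-GR cells and 1.48-fold in S134A-GR cells (limma adjusted p = 1.46e-05 and 0.000487). The other steroid receptor with expression, the beta estrogen receptor ESR2, stood between 51.1 and 99.78 in all libraries and did not pass under TGFβ1 in either line.

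PPARG, the fatty acid receptor best known for its role in fat cells, held 9380, 9289 and 9776 normalized counts under vehicle and 7219, 7037 and 7246 under TGFβ1 in wt-GR cells. In S134A-GR cells the values were 5568, 5882 and 5900 under vehicle and 4627, 4541 and 4263 under TGFβ1. The 4 groups did not overlap, and treated wt-GR cells stood above untreated S134A-GR cells. The fall with TGFβ1 was 1.32-fold in wt-GR cells and 1.29-fold in S134A-GR cells (limma adjusted p = 4.84e-06 and 1.41e-05). The liver X receptors NR1H2 and NR1H3, PPARA and HNF4G did not pass in either line under TGFβ1. ESRRA did not pass either, though it was 1.12-fold higher in wt-GR cells (limma adjusted p = 0.0511). It passed there with edgeR, DESeq2, TMM scaling or only genes of mean 20 tested.

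Among the orphan receptors, NR6A1, the germ cell nuclear factor, held 378.0, 335.0 and 368.5 normalized counts under vehicle and 234.4, 230.7 and 247.5 under TGFβ1 in wt-GR cells. It held 403.4, 406.5 and 425.8, and then 248.2, 268.3 and 305.4, in S134A-GR cells. The treated libraries lay below the vehicle libraries in each line, with a 1.51-fold fall in both (limma adjusted p = 0.000533 and 0.000675). NR4A2, an immediate early gene of the NR4A group, held 293.3, 247.3 and 242.2 under vehicle and 192.2, 177.9 and 154.8 under TGFβ1 in wt-GR cells, and 171.5, 117.6 and 164.8 followed by 98.91, 91.12 and 93.71 in S134A-GR cells. Its falls of 1.49-fold and 1.57-fold passed (limma adjusted p = 0.0183 and 0.00961), but the call was lost without wt-GR vehicle replicate 1, wt-GR TGFβ1 replicate 3 or, in the other line, S134A-GR vehicle replicate 1 (and there also in a fit of only the groups compared). The other NR4A genes, NR4A1 and NR4A3, did not pass under TGFβ1 in either line. NR4A3 came near in S134A-GR cells, 1.65-fold lower without overlap (limma adjusted p = 0.0533). It passed there with edgeR, a pseudocount of 16, only genes of mean 20 tested or only the groups compared, but not with DESeq2. NR2F2, the COUP-TF shown above, went from a mean of 15920 to 12300 in the wt-GR line and from 25190 to 21230 in the S134A-GR line, a fall of 1.29-fold and 1.19-fold (limma adjusted p = 1.87e-05 and 0.000855). NR2F1 stood at 2204 and 2253 in wt-GR cells and at 1154 and 1047 in S134A-GR cells and did not pass in either line.

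The RAR-related orphan receptors RORA and RORB are involved in circadian and lipid regulation and in neural development. RORB, which lies at chr9:74497335-74693177 on the plus strand, held 65.18, 115.2 and 85.29 normalized counts under vehicle and 31.11, 57.85 and 40.74 under TGFβ1 in wt-GR cells. The S134A-GR libraries held 118.8, 123.7 and 108.7 under vehicle and 111.3, 75.93 and 95.86 under TGFβ1. The wt-GR groups did not overlap, the S134A-GR groups did. The fall of 2.03-fold in wt-GR cells had an adjusted p of 0.00958 by limma, and it rose to 0.0548 without wt-GR vehicle replicate 2 to 0.0503 without wt-GR TGFβ1 replicate 1 and to 0.0617 with only these groups in the fit. The S134A-GR response was −0.32 ± 0.25 on the log2 scale (SE), and the test of the difference gave 0.70 with a 95% interval from −0.06 to 1.47. RORA averaged 950.4 and 1093 in wt-GR cells and 987.1 and 1195 in S134A-GR cells, where its 1.21-fold rise passed (limma adjusted p = 0.0335). That call was lost when any of 4 S134A-GR libraries was left out, namely replicates 1 and 2 under each treatment, and in a fit of only the groups compared.

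**Figure D2:**
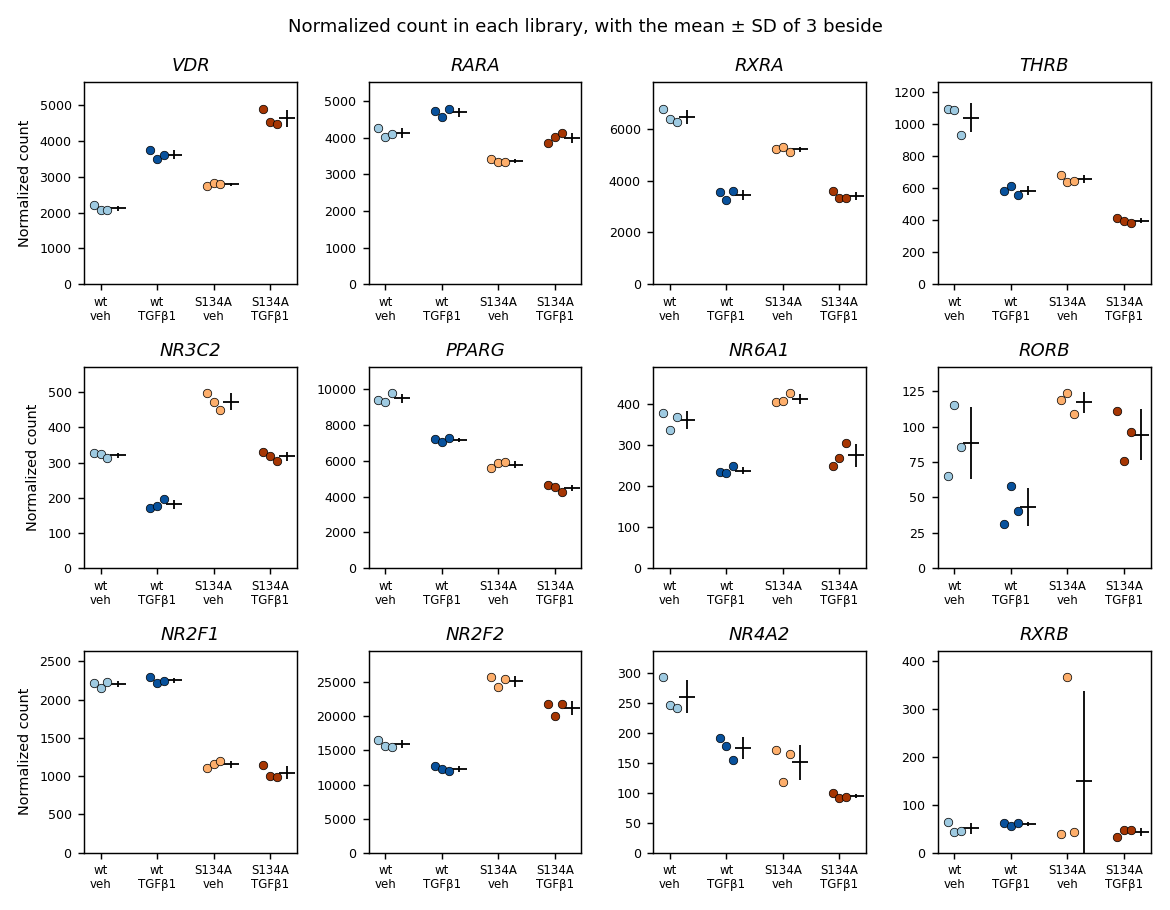
Normalized count in each of the 12 libraries for 12 nuclear receptor genes (1 panel each, y axis from 0), with the mean ± SD of each group's 3 libraries drawn beside its points. VDR stands higher and RXRA, THRB, NR3C2, PPARG and NR6A1 lower under TGFβ1 in each line without overlap, NR2F1 and NR2F2 differ between the lines in opposite directions, and 1 library of RXRB stands at 365.9.

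**Figure D3:**
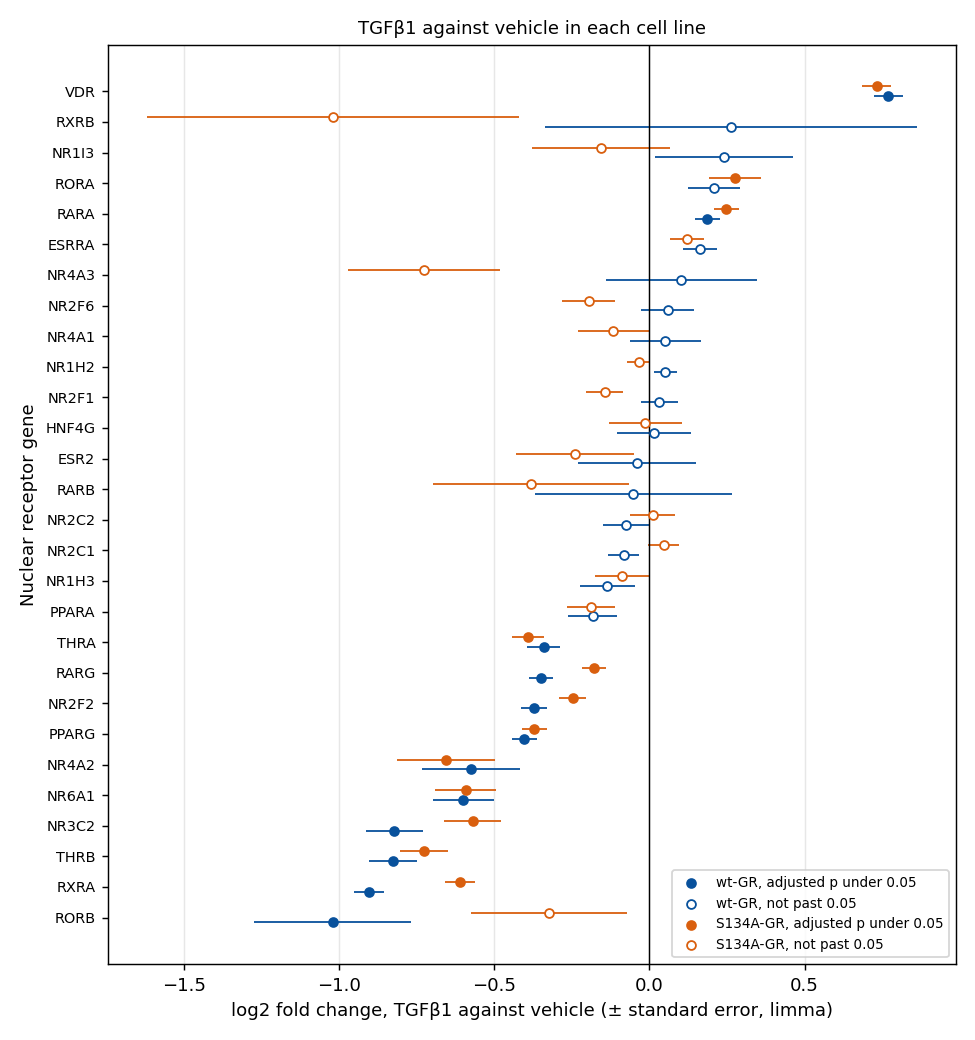
Log2 fold change of TGFβ1 against vehicle (x axis, ± SE from limma) for the 28 expressed genes (rows) in wt-GR and S134A-GR cells, with filled points for an adjusted p under 0.05. VDR stands at the top with 0.77 and 0.73, RXRA stands near the bottom with −0.90 and −0.61, and in 11 genes the points of both lines are filled.

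Whether the response to TGFβ1 differed between the lines was tested directly, with positive values for a response that is higher in S134A-GR cells. None of the 28 receptors passed an adjusted p of 0.05 in limma, beside 0.527% of all genes of that level (0.208% higher, 0.319% lower, and 0.0693% by the stricter rule). At an unadjusted p under 0.05, 3 did: RXRA, RARG and NR4A3. RXRA came nearest, with a difference of 0.29 ± 0.07 on the log2 scale (SE) and an adjusted p of 0.125. The quasi-likelihood test of edgeR on the recovered reads gave none past the threshold, with an adjusted p of 0.1 for RXRA. The Wald test of DESeq2 passed RXRA alone (adjusted p = 0.0141). Leaving out 1 library at a time moved the limma value of RXRA between 0.0623 and 0.283. For RARG the difference was 0.17, with a 95% interval from 0.05 to 0.29, and for NR4A3 it was −0.83, from −1.57 to −0.09.

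The last set of comparisons sets S134A-GR against wt-GR under each treatment. Under vehicle, 17 of the 28 genes passed, with 5 higher and 12 lower in the S134A-GR line, and under TGFβ1 15 passed, 4 higher and 11 lower. These shares, 60.7% and 53.6%, stand beside 61.8% and 58.7% of all genes of that level. By direction, 30.0% of those genes were higher and 31.8% lower under vehicle, and 28.0% were higher and 30.7% lower under TGFβ1. As a group the receptors were therefore called about as often as other genes. NR2F2, NR3C2 and VDR were higher in S134A-GR cells under both treatments. Lower under both were ESRRA, NR1H3, NR2F1, NR4A1, NR4A2, PPARA, PPARG, RARA and THRB. The median log2 fold change was −0.16 under vehicle and −0.08 under TGFβ1, beside 0.003 and 0.005 for all genes tested. The stricter rule was met by no receptor under vehicle (7.8% of all genes) and under TGFβ1 (6.82%) by NR2F1 and RORB. These comparisons use the same libraries as the TGFβ1 comparisons. Whether a difference between the lines changed with the treatment is the same test as the difference in response above, which none of the 28 passed in limma. Markers of other cell types also differed between the lines. Of the 4 luminal markers, EPCAM was lower (log2 −1.44 under vehicle and −1.58 under TGFβ1, limma adjusted p = 5.66e-08 and 2.59e-08), GATA3 and FOXA1 were higher under both treatments, and CDH1 did not pass. Their summed level lay between 2030 and 2107 in wt-GR vehicle libraries and between 1693 and 1856 in S134A-GR vehicle libraries, and between 1851 and 2001 and between 1391 and 1609 under TGFβ1. The leukocyte markers PTPRC and CD14 summed to between 29.59 and 37.48 in wt-GR and between 8.109 and 16.93 in S134A-GR vehicle libraries. CD14 carried this difference, as PTPRC averaged 3.865 in wt-GR and 7.179 in S134A-GR vehicle libraries and did not pass. Under TGFβ1 the sums overlapped, at 11.72 to 23.42 in wt-GR and 5.723 to 14.18 in S134A-GR cells. The endothelial marker PECAM1 was lower in S134A-GR cells under both treatments. The part of these markers in the results on receptors was not tested.

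The COUP-TF pair parted between the lines. NR2F1 held 2222, 2159 and 2229 normalized counts in wt-GR cells and 1103, 1165 and 1194 in S134A-GR cells under vehicle. Under TGFβ1 the values were 2294, 2223 and 2242 against 1149, 1004 and 987.2. All 6 S134A-GR libraries lay below all 6 wt-GR libraries, by 1.91-fold under vehicle and 2.16-fold under TGFβ1 (limma adjusted p = 1.68e-08 and 3.34e-09). NR2F2, whose zinc finger stretch encodes all but 1 of the same residues, held 16550, 15680 and 15540 in wt-GR cells and 25760, 24270 and 25540 in S134A-GR cells under vehicle. Under TGFβ1 it held 12740, 12250 and 11920 against 21850, 20070 and 21760. It was thus higher in each S134A-GR library than in any wt-GR library, by 1.58-fold and 1.72-fold (limma adjusted p = 1.79e-08 and 3.58e-09). NR2F6, the remaining member of this subfamily, was 1.38-fold lower under TGFβ1 (limma adjusted p = 0.000385) and 1.16-fold lower under vehicle, where the adjusted p was 0.0506. The vehicle difference passed with edgeR, DESeq2, a replicate block or only genes of mean 20 tested. An antisense gene, NR2F1-AS1, shares 3.61% of the NR2F1 exon bases and averaged 1272 normalized counts. The strand setting of the counting is not given in the sources used here.

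Among the receptors for lipids and the estrogen-related receptors, ESRRA, NR1H3, PPARG and PPARA were lower in S134A-GR cells under both treatments, and NR1H2 and HNF4G did not pass. ESRRA, which with its coactivators controls genes of mitochondrial metabolism, held 4292, 4278 and 4846 normalized counts in wt-GR cells and 2729, 2868 and 2600 in S134A-GR cells under vehicle, and 5035, 4817 and 5140 against 2854, 3071 and 2993 under TGFβ1, with no overlap between the lines. It was 1.63-fold and 1.68-fold lower (limma adjusted p = 1.16e-07 and 7.25e-08), with 5.02% of its exon stretches also found elsewhere in hg38 and 9.16% of its exon bases shared with TRMT112 on the other strand. The liver X receptor NR1H3, a sensor of oxysterols, averaged 2007 and 1144 under vehicle and 1825 and 1086 under TGFβ1 in wt-GR and S134A-GR cells. NR1H3 was 1.75-fold and 1.69-fold lower (limma adjusted p = 3.34e-06 and 6.78e-06), with 4.17% of its exon bases shared with ACP2 on the other strand. PPARG was 1.64-fold and 1.60-fold lower (limma adjusted p = 4.99e-09 and 8.85e-09). The other liver X receptor, NR1H2, did not pass under either treatment, with log2 differences of 0.08 and −0.01, and 22.1% of its exon bases overlap NAPSA. PPARA passed narrowly under both treatments, with differences of −0.20 and −0.20 and adjusted p of 0.0487 and 0.0478 in limma. These calls were lost in 11 and 9 of the other settings that fit each gene again. Under vehicle they included leaving out wt-GR vehicle replicate 1 or 2, any wt-GR TGFβ1 replicate, S134A-GR vehicle replicate 1 or 2, or S134A-GR TGFβ1 replicate 2. Under TGFβ1 they included leaving out wt-GR vehicle replicate 2, any wt-GR TGFβ1 replicate, S134A-GR vehicle replicate 1, or S134A-GR TGFβ1 replicate 2 or 3.

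THRB was 1.58-fold lower in S134A-GR cells under vehicle and 1.47-fold lower under TGFβ1, whereas THRA differed by −0.01 and −0.06 on the log2 scale and did not pass. RARA was lower by 1.23-fold and 1.17-fold. RARG and RXRA passed under vehicle, 1.14-fold and 1.24-fold lower, and not under TGFβ1, where each differed by −0.02 on the log2 scale. The test of that change between treatments did not pass (limma adjusted p = 0.334 for RARG and 0.125 for RXRA). VDR was higher by 1.31-fold and 1.28-fold (limma adjusted p = 6.31e-06 and 1.86e-05). NR3C2 was higher by 1.47-fold under vehicle and 1.75-fold under TGFβ1 (limma adjusted p = 0.000136 and 4.82e-06). RORB was 2.20-fold higher under TGFβ1 (limma adjusted p = 0.00177), and under vehicle its log2 difference was 0.43 with a 95% interval from −0.11 to 0.98.

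In the NR4A group of fast-responding orphan receptors, NR4A1 and NR4A2 were lower in S134A-GR cells under both treatments. NR4A2 was 1.74-fold lower in S134A-GR cells under vehicle and 1.84-fold lower under TGFβ1 (limma adjusted p = 0.000685 and 0.000346). NR4A1 averaged 236.1 and 187.6 under vehicle and 245.4 and 173.0 under TGFβ1 in wt-GR and S134A-GR cells, and was 1.26-fold and 1.41-fold lower (limma adjusted p = 0.0273 and 0.00243). Under vehicle this call was lost without any of 4 libraries, wt-GR replicates 1 and 2 and S134A-GR replicates 1 and 3. NR4A1 shares 10.3% of its exon bases with NR4A1AS on the other strand. NR4A3 held 31.11, 38.08 and 29.54 in wt-GR cells and 18.07, 20.25 and 17.88 in S134A-GR cells under TGFβ1, and was 1.71-fold lower (limma adjusted p = 0.0167). Without wt-GR TGFβ1 replicate 2 the adjusted p was 0.0687. Under vehicle NR4A3 differed by 0.05 ± 0.24 (SE).

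Of the low-level receptors, NR1I3, the constitutive androstane receptor, averaged 36.18 and 65.98 under vehicle and 42.96 and 60.15 under TGFβ1 in wt-GR and S134A-GR cells, and passed under vehicle alone with a 1.80-fold difference (limma adjusted p = 0.00524). It shares 20.4% of its exon bases with TOMM40L, a gene of the other strand with a mean of 2227, and the part of those reads in its counts was not tested. ESR2 was 1.47-fold higher under vehicle (limma adjusted p = 0.0253), a call lost without wt-GR vehicle replicate 1 or 3 or S134A-GR vehicle replicate 1 or 3. NR2C1, a testicular orphan receptor, was 1.17-fold lower under vehicle (limma adjusted p = 0.00114). NR2C2, its relative, has 60.5% of its exon bases in common with MRPS25 on the other strand and passed no comparison. HNF4G, RXRB, NR1H2 and RARB passed none either in the main fit.

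**Figure D4:**
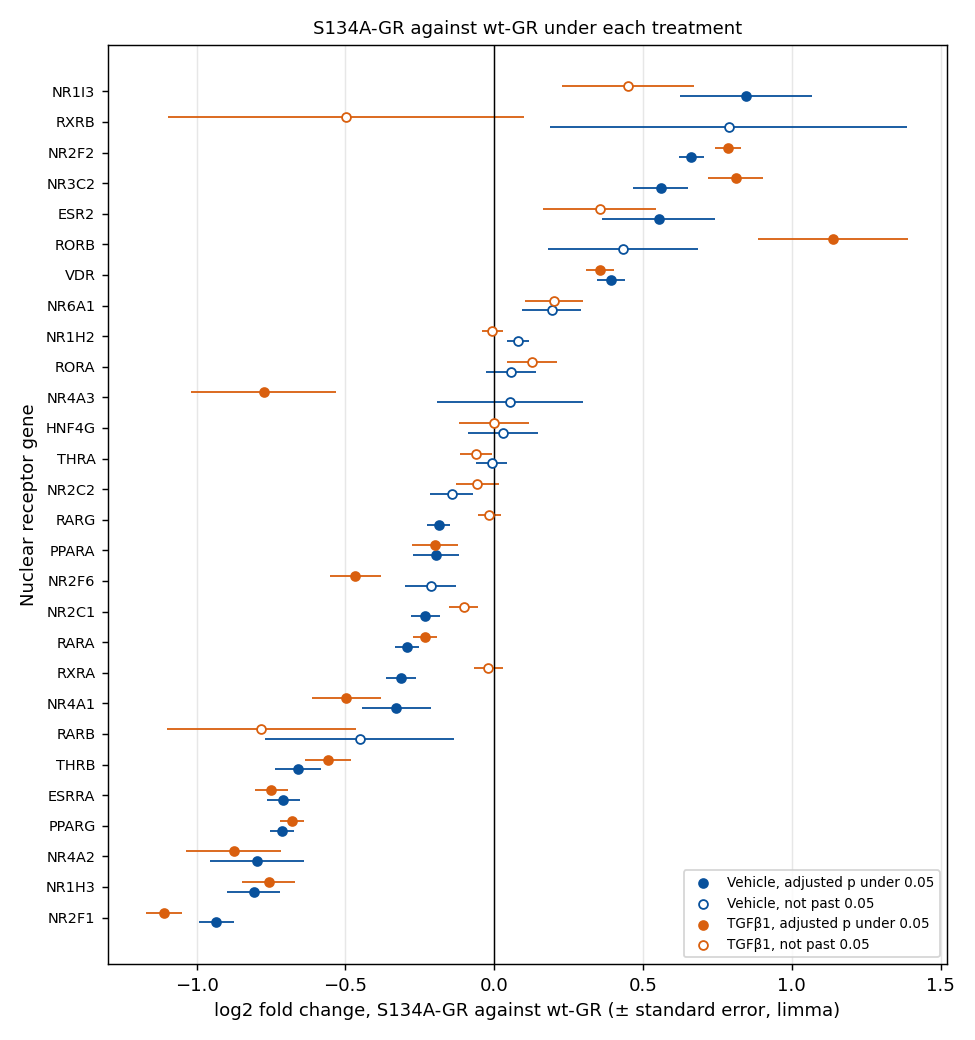
Difference between the lines as a log2 fold change, positive where S134A-GR cells are higher (x axis, ± SE from limma), for the 28 expressed genes (rows) under vehicle and under TGFβ1, with filled points for an adjusted p under 0.05. NR2F1 stands lowest with −0.93 and −1.11, NR2F2 and NR3C2 stand to the right with filled points under both treatments, and RORB reaches 1.14 under TGFβ1.

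Coregulators, the proteins that receptors recruit to switch genes on or off, were taken as a list of 26 genes, and all 26 were expressed. In S134A-GR against wt-GR cells, none was higher and 13 were lower under vehicle, and 1 was higher and 12 were lower under TGFβ1. These are 50% of the list under each treatment, beside 61.8% and 58.7% of all genes of that level, of which 31.8% and 30.7% were lower. With 1 library left out at a time, the coregulators called ranged from 11 to 17 under vehicle and from 10 to 18 under TGFβ1. The median log2 difference was −0.18 under vehicle and −0.11 under TGFβ1. PELP1, a scaffold for steroid receptors, stood out by size: it held 3891, 3694 and 3511 in wt-GR cells and 1749, 1749 and 1759 in S134A-GR cells under vehicle. Its log2 difference was −1.08 under vehicle and −1.15 under TGFβ1 (limma adjusted p = 9.94e-10 and 5.92e-10), with no overlap. Under TGFβ1 against vehicle, 5 coregulators were higher and 4 lower in wt-GR cells, and 5 were higher and 3 lower in S134A-GR cells. Their shares were 34.6% and 30.8%, beside 26.1% and 23.5% of all genes. The count in wt-GR cells was 15 instead of 9 without wt-GR vehicle replicate 3. PPARGC1A, the coactivator that works with PPARG and ESRRA in energy metabolism, held 242.8, 195.5 and 157.9 under vehicle and 47.77, 69.57 and 65.18 under TGFβ1 in wt-GR cells. The S134A-GR libraries held 199.8, 207.8 and 202.2 under vehicle and 79.89, 63.79 and 37.2 under TGFβ1. TGFβ1 gave log2 fold changes of −1.69 (wt-GR) and −1.80 (S134A-GR) (limma adjusted p = 0.00022 and 0.000143), and the lines did not pass against each other. None of the 26 passed in the test of a different response, and 1 did at an unadjusted p under 0.05.

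Genes that supply, bind or break down retinoids formed a list of 12, of which 11 were in the files and 6 were expressed. Between the lines, 1 was higher and 3 were lower in S134A-GR cells under vehicle, and 1 was higher and 2 were lower under TGFβ1. With 6 genes, these are 66.7% and 50%, beside 61.8% and 58.7% of all genes. STRA6, the cell-surface importer of retinol, held 48.88, 39.1 and 38.96 in wt-GR cells and 14.14, 2.027 and 7.127 in S134A-GR cells under vehicle. Under TGFβ1 it held 54.43, 57.85 and 63.14 in wt-GR cells and 34.24, 27.34 and 20.03 in S134A-GR cells. It is among the genes counted only because of the groups where it is high, with 1 S134A-GR vehicle library under the floor of 3 reads, so no fold change is given. STRA6 is 1 of the 3 genes lower under vehicle, so the share of 66.7% rests in part on it and nothing is read from that share. The difference between the responses did not pass for any of the 6, and 1, STRA6, had an unadjusted p under 0.05. With TGFβ1, 1 gene of the list was higher and 1 lower in wt-GR cells (33.3%), and 2 were higher and 1 lower in S134A-GR cells (50%), beside 26.1% and 23.5% of all genes. STRA6 is 1 of the 2 higher in S134A-GR cells, so nothing is read from the 50% either. In a fit of only the S134A-GR groups, CYP26B1 passed and the calls of STRA6 and RDH10 were lost (limma adjusted p = 0.0917 and 0.107). CYP26B1, which degrades retinoic acid, rose from a mean of 2144 to 3136 in the wt-GR line and from 1761 to 2436 in the S134A-GR line (limma adjusted p = 8.67e-06 and 4.69e-05).

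Well-known target genes of the receptors formed a list of 26, of which 25 were in the files and 15 were expressed. NR1H3 and RARB are both receptors and targets, and CYP26A1, CYP26B1 and DHRS3 are on both this list and the retinoid list. In S134A-GR cells 11 of the 15 were lower and none higher under vehicle, and the same counts held under TGFβ1. Their shares, 73.3% each, stand beside 31.8% and 30.7% of all genes that were lower, and 61.8% and 58.7% called in either direction. The median log2 differences were −0.45 and −0.40. PDK4, a target of fatty acid receptors that slows pyruvate oxidation, averaged 763.0 and 325.9 under vehicle and TGFβ1 in wt-GR cells and 491.7 and 246.5 in S134A-GR cells. Its response to TGFβ1 on the log2 scale was −1.24 (wt-GR) and −0.996 (S134A-GR) (limma adjusted p = 5.25e-06 and 5.19e-05). SCNN1A, the epithelial sodium channel subunit that answers to the mineralocorticoid receptor, averaged 132.9 (wt-GR) and 62.63 (S134A-GR) under TGFβ1. This was a log2 difference of −1.05 (limma adjusted p = 0.000238). Under TGFβ1, NR3C2 itself was higher and the GR transcript NR3C1 lower in S134A-GR cells. Which receptor sets the level of PDK4 or SCNN1A in these cells was not tested. The classical vitamin D target CYP24A1, which degrades the hormone, averaged 7.20 normalized counts over the 12 libraries and was not counted as expressed. With TGFβ1, 3 targets rose and 2 fell in wt-GR cells and 3 rose and 3 fell in S134A-GR cells (33.3% and 40.0% of the 15, beside 26.1% and 23.5% of all genes). None passed in the test of a different response, where 1 had an unadjusted p under 0.05.

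Promoter sequence was examined for motifs in the 250 bases before the start listed by RefSeq, on both strands, for 24 of the 28 expressed genes that the table holds. VDR, NR2F6, NR4A2 and HNF4G are not among them. The letters AGGTCA, the hexamer that many nuclear receptors bind, occurred in 3 of the 24, RARA, PPARG and NR1H3, beside 12.1% of 27305 promoters. The letters CAGAC, found in elements that SMAD proteins of the TGFβ1 pathway bind, occurred in 10 of the 24, beside 37.8% of all. Of these, RXRA, NR6A1 and PPARG fell with TGFβ1 in both lines and RARA rose in both. The others, RARB, RXRB, NR1I3, NR2F1, ESR2 and ESRRA, passed under TGFβ1 in neither line. Among the examined genes without CAGAC, NR2F2, NR3C2, RARG, THRA and THRB also fell in both lines. Of the rest without it, RORB fell in wt-GR cells only, RORA rose in S134A-GR cells only, and the others passed in neither. A link between these letters and the response was not tested. The letters TGANTCA, read by AP-1 factors, occurred in NR1I3 and NR2C1, beside 6.6% of all. Matches of these motifs can share end letters, and none of them contains another. Shown are RXRA and NR6A1, which both fell with TGFβ1 in each line and hold CAGAC, in capitals, on GRCh38.p14. The RXRA sequence is chr9:134326205-134326454 on the plus strand, before the first of its 2 listed starts, and the NR6A1 sequence is chr9:124771312-124771561 on the minus strand.
RXRA: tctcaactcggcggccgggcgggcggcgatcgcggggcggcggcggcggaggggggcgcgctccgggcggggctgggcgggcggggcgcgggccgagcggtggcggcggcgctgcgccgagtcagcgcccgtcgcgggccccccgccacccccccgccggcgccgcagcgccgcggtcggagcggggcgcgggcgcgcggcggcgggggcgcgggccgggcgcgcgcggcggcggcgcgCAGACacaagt
NR6A1: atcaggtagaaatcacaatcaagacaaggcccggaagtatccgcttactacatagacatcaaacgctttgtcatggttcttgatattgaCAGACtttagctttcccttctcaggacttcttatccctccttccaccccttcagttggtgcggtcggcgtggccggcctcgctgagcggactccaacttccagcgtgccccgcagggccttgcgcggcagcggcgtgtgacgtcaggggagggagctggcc
The bases are 89.2% G or C in RXRA and 56.8% in NR6A1. Each holds 1 match, which describes the letters in the window and nothing about binding.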

How the data were processed

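MDA-MB-231 RNA of 4 groups (wt-GR or S134A-GR, vehicle or TGFβ1) was sequenced with 3 replicates per group. The deposited signal values are normalized counts. The authors used Trimmomatic on the reads, HISAT2 for alignment to hg38, featureCounts for counting, and size factors of DESeq2 1.22.2 as divisors. The gene annotation and strand setting are not given in the sources used here. In each library 100% of values came out as whole reads (tolerance 0.001) once divided by the value of 1 read, giving 56362036 to 129832227 reads per library. Each of these totals exceeds the average number of reads per sample that the authors give. Whether a read pair was counted once or per read is not stated in the sources used here. Precision and the floors of 3 reads were taken from the counts as recovered, and the floors cover counting error only.

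Limma 3.58.1 in R 4.3.3 was run on log2(value + 1), a pseudocount of 1, over the 18579 genes with at least 10 summed reads, with 4 group means, a trend in the empirical Bayes step and Benjamini-Hochberg adjustment over all of them. The self-test on simulated data was run before the fit. Called means an adjusted p under 0.05, and the stricter rule also asks for a log2 fold change of 1 or more in size. With 3 against 3 libraries, the smallest p of an exact permutation test is 0.1, so none was used. Alternatives were pseudocounts of 0.5 and 16, edgeR 4.0.16 and DESeq2 1.42.0 on recovered reads, TMM scaling, other filters, a replicate block, only the groups compared, and leaving out every library singly.

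The members, the lists and the tests were chosen with earlier results of these data known. Every receptor is named. Per-library values are given for those past the stricter rule and for retinoid and NR4A receptors called under TGFβ1, and, chosen after their values were seen, for VDR, RXRB, THRB, NR3C2, PPARG, NR6A1, NR2F2, ESRRA and NR4A3. From the lists, genes past the stricter rule are named, and CYP26B1 and CYP24A1 were added after their values were seen. Levels per kb use GENCODE exons on hg38. Of the 18 pairs of libraries with the same replicate number, correlations of deviations from the group means ranged from −0.105 to 0.128 over 13281 genes, so the numbers were not taken to pair libraries. Replicates differed by more than counting noise, with chi-square per degree of freedom between 8.69 and 43.7.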

Additional observations from a re-analysis of the deposited data

How the results depend on the processing

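Of the 22 other settings, the limit of a mean of at least 50 changed only which receptors were counted. In the rest, no called fold change of a receptor turned its direction. Apart from leaving out libraries, 1208 values of single receptors kept their side of the threshold, 8 lost the call and 16 gained it. When 1 library was left out, 1630 kept it, 33 lost it and 17 gained it. The calls lost most often were those of PPARA between the lines. With DESeq2's Wald test 1 receptor, RXRA, passed for a different response in place of 0. With only the groups compared in the fit, 1 retinoid handling gene passed under TGFβ1 in S134A-GR cells in place of 3, where fewer libraries estimate the spread.

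Leaving out 1 library at a time, the receptors called ranged from 14 to 18 and from 13 to 17 between the lines under vehicle and TGFβ1, from 11 to 14 and from 10 to 13 for TGFβ1 in wt-GR and S134A-GR cells, and stayed at 0 for the difference in response. Coregulators called under TGFβ1 in wt-GR cells ranged from 8 to 15, and for the difference in response from 0 to 1, both highest without wt-GR vehicle replicate 3. In the other comparisons the counts of the lists stayed within 1.5 times.

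The replicate numbers did not pair the libraries. With a replicate block, 18 and 15 receptors were called between the lines, 12 and 12 under TGFβ1, and 0 for the difference in response. TMM scaling moved the median gene by at most 0.0111 on the log2 scale in size. Genes near the floor of 3 reads, such as ESR1, cannot be compared at this depth.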
